A study of Mus musculus with 26 samples.

Results

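The 50 genes described here encode the machinery of mitosis, from the cyclins that start it to the motors and scaffold proteins that divide the cell. They were taken by name, by a rule with no threshold on their values, from the 35865 genes of the gene table. Mitosis begins when cyclin B binds CDK1, whose activity is raised by the phosphatase CDC25C and whose partner genes are switched on late in the cycle by the transcription factors MYBL2 and FOXM1. Kinases such as PLK1 and the Aurora kinases build the spindle, kinetochores attach the chromosomes to it, and a checkpoint of BUB and MAD proteins holds CDC20 back from the anaphase-promoting complex until every chromosome is attached. In resting T cells these genes are known to be kept low, and in dividing T cells they are switched on again in each round of the cycle.

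The study followed the CD8+ T cells of Tg101 mice, which carry a T cell receptor that recognizes the mouse leukemia C1498. The receptor came from 1 CD8+ clone, sees an unnamed antigen presented by Kb, and was bred onto a Rag2-/- background, so that every donor T cell has the same specificity. The labels give all mice as C57BL/6, wild type and 6 weeks old. RNA-seq was run on sorted TCRTg101 cells, and the transferred cells had been labelled with CellTrace Violet (CTV), a dye that is diluted at each division, before leukemia was given intravenously.

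The control group held 3 libraries from spleen. Controls 1 and 2 were naive Tg101 cells at day 0, and control 3 held transferred cells taken at day 18 from mice that received no leukemia. The undivided group was 1 library of CTVhi cells, which had kept their dye, from the spleen of leukemia-bearing mice at day 18. Cells from the liver of leukemia-bearing mice were collected at an early time point (day 7, 2 libraries), at mid time points (day 13 for mid libraries 1 and 2, day 14 for mid library 3) and at late time points (day 18 for late library 1, day 16 for late library 2). Spleens of leukemia-bearing mice gave 2 libraries at day 7 and 1 at day 14. Control 1, mid library 1 and late library 1 carry TG in their titles and the other 11 of these 14 low-input libraries carry XC. This series was a term in the main fits, but not in every alternative. The leukemia and the tissue changed together between the controls, all from spleen, and the liver libraries, so they cannot be told apart in those comparisons. Controls 1 and 2 were naive cells of day 0, so transfer and the time after it also differed between them and the liver libraries. Nothing states that the libraries of a group came from separate mice, so the p-values measure only the spread between these libraries.

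Libraries held 22918996 to 71358287 estimated counts, and members of a group differed from each other beyond counting noise. The 8 T cell markers, Cd3e and Cd8a among them, summed to 4163 to 9405 CPM (counts scaled to the size of the library, with TMM factors) in every library, and none of the marker genes was at 0 throughout the mid and late libraries. Other markers moved with the groups. The 6 erythroid markers summed to 5236 and 20350 CPM in controls 1 and 2 against 136 CPM in control 3 and 5.59 to 215 CPM in mid and late liver, and the 12 myeloid markers to 555, 127 and 18.2 CPM in the controls against 3.70 to 28.8 CPM. The 8 hepatocyte markers summed to 218, 22.3 and 3.14 CPM in the mid and 357 and 87.5 CPM in the late libraries. Alb, the defining one, read 85.9, 8.49 and 0.914 CPM in mid and 132 and 24.5 CPM in late liver against at most 0.0325 CPM in the controls, while the control sums of 319, 22.1 and 1.07 CPM were mostly Trf (319, 21.9 and 0.747 CPM). The 5 NK cell markers summed to 60.0 to 106 CPM in mid and late liver against 11.8 to 25.8 CPM in the controls, and most of that was Eomes (54.2 to 100.2 CPM against 6.16 to 25.1 CPM), which activated CD8+ T cells also express. Ncr1, a defining NK gene, was at 0 to 0.475 CPM in mid and late liver and at 0 to 1.99 CPM in the controls. Klrb1c, another of the 5, read 2.28, 2.46 and 0.617 CPM in the controls. It read 2.00, 3.85 and 2.08 CPM in mid and 5.23 and 5.70 CPM in late liver. The 3 CD4 T cell markers summed to 7.6 to 11.18 CPM in mid and late liver against 2.565 to 6.337 CPM in the controls. Among them Cd40lg read 4.64 to 8.02 CPM against 0.3745 to 2.18 CPM, and Cd4 0.417 to 0.9865 CPM against 0.130 to 5.35 CPM. The part of these markers in the results was not tested.

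All 50 genes passed the filter of at least 10 counts in at least 6 libraries, and 45 held at least 10 counts in every one of the 14 low-input libraries. Each of the 3 controls held at least 10 counts of 49 of them, Bub1 being the exception with 3 counts in control 3. Their summed level was 997, 940 and 741 CPM in the controls, 879 CPM in the undivided library, 899 and 686 CPM in early spleen, 2046 CPM in day 14 spleen, 2073 and 776 CPM in early liver, 7116, 2919 and 4907 CPM in mid liver and 6997 and 5787 CPM in late liver. The mid and late livers were thus above every other library, and the early liver libraries lay far apart. The median gene read 4.77, 3.39 and 2.00 CPM in the controls, 102, 39.1 and 80.4 CPM in mid liver and 98.0 and 101 CPM in late liver. In bulk libraries such as these, fewer cells in mitosis and less mitotic RNA per cell cannot be told apart.

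**Figure D1:**
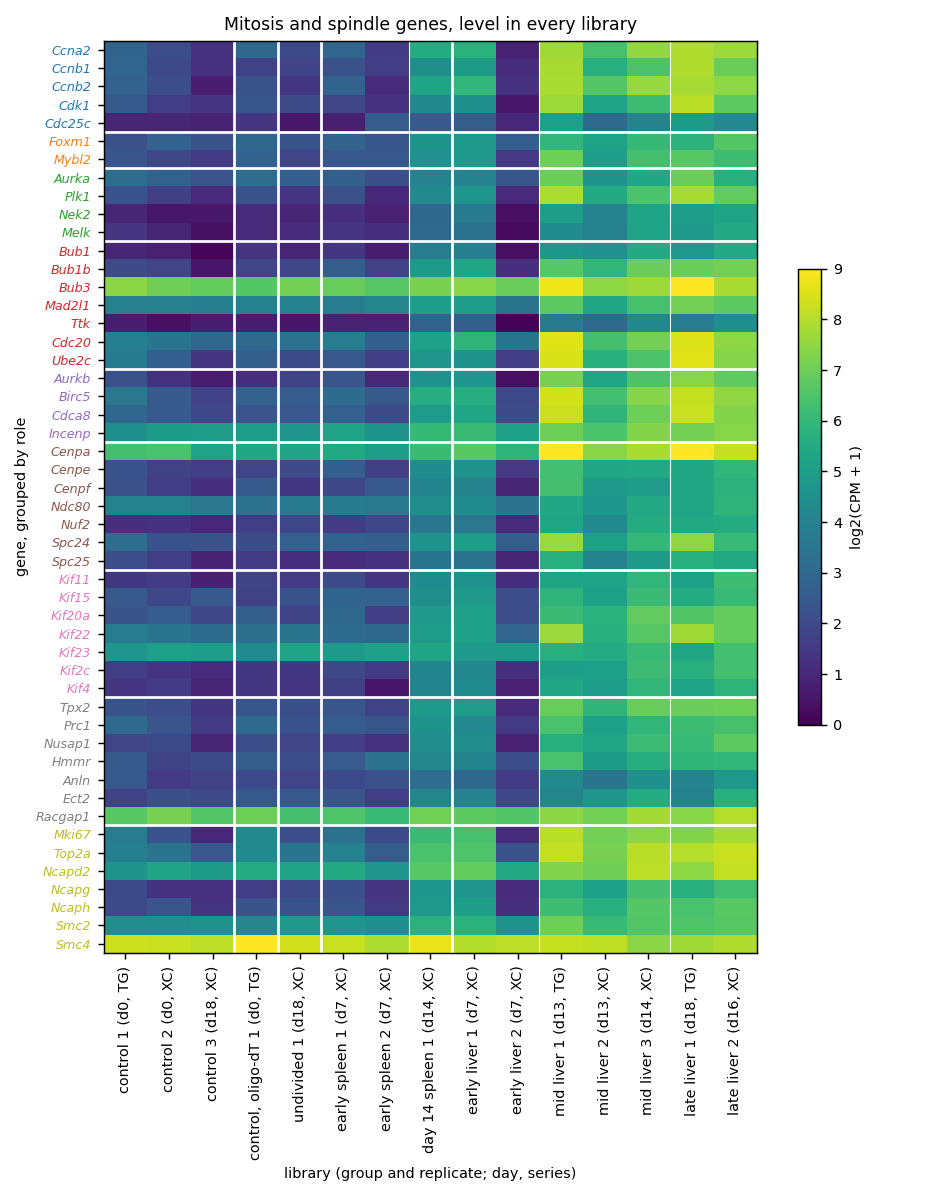
The color gives log2(CPM + 1) of each of the 50 genes (vertical axis, grouped by role) in each of the 15 libraries (horizontal axis, with day and series). Mid and late liver are bright for most genes, early liver library 1 and day 14 spleen are intermediate, and Smc4, Bub3 and Racgap1 are bright in every library.

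At mid time points 48 of the 50 genes were higher in liver than in the controls, and at late time points 49 were, with none lower at either time (edgeR quasi-likelihood test, adjusted p under 0.05 over all 14600 genes tested). Over all genes tested, 17.3% were higher and 13.9% lower at mid time points, and 19.8% were higher and 17.7% lower at late time points. DESeq2 called the same numbers, 48 and 49. The genes that did not pass were Racgap1 and Smc4 at mid time points and Smc4 at late time points. The median log2 fold change of the 50 was 4.36 at mid and 4.73 at late time points, and single log2 fold changes are given ± their standard error (SE). This SE is approximate, being the size of the log2 fold change divided by the square root of the F statistic of its test. Every one of the 5 mid and late libraries was above every control for 48 of the 50 genes, again without Racgap1 and Smc4, against 18.8% of all 15449 genes measured. Both comparisons share the 3 controls.

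The number of calls depended on single libraries. Leaving out control 1, control 2, mid library 1 or mid library 3 left edgeR with 0 of the 50 called at mid time points, while leaving out control 3 left 24 and mid library 2 left 46. Over all genes those fits called 0.00706%, 0.0%, 0.0% and 0.0% higher, and 8.78% and 12.4% without control 3 and mid library 2, so the calls were lost across all genes and not for these genes alone. The median log2 fold change stayed between 4.16 and 4.61 in these fits, with 48 or 49 genes at an unadjusted p under 0.05. At late time points the call count was 0 without control 1, late library 1 or late library 2, 44 without control 2 and 45 without control 3, with medians of 4.35 to 4.98 and 46 to 49 genes at an unadjusted p under 0.05. Over all genes 0.889%, 0.0% and 0.0% were then higher, and 12.3% and 15.1% without control 2 and control 3. Where 1 late library was left, it was taken to vary like the other groups. DESeq2 was not run on these smaller sets. Without the series term edgeR called 46 at each time, and Bub3 and Kif23 no longer passed (adjusted p = 0.0630 and 0.0666 at late time points), nor did Racgap1 at late time points (0.0686).

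**Figure D2:**
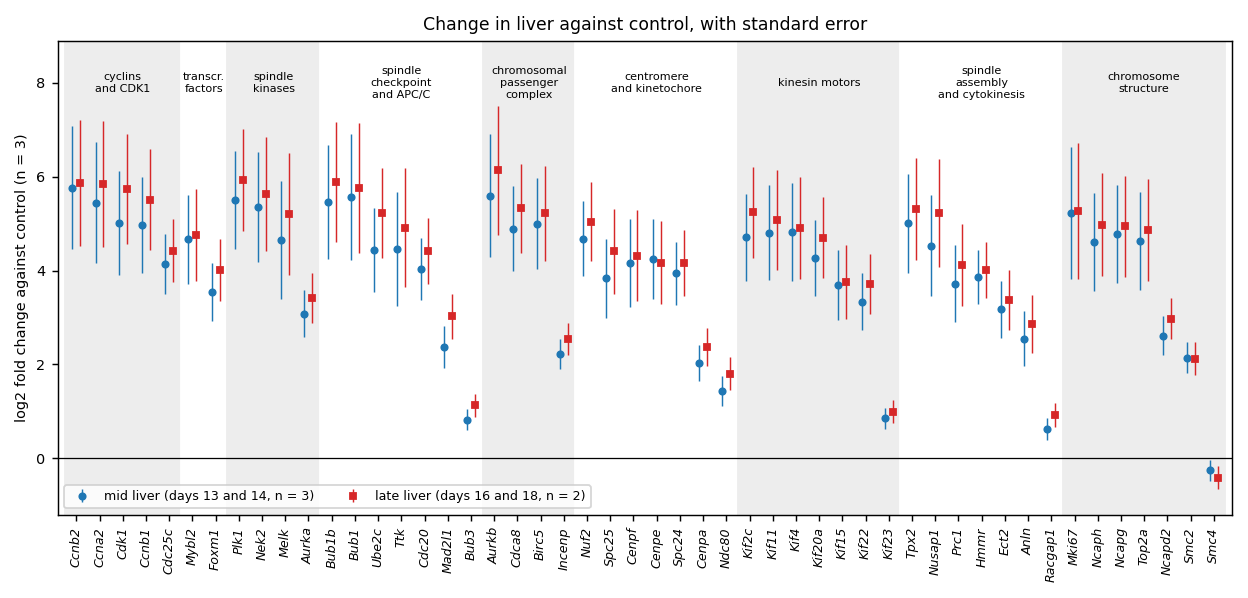
Points give the edgeR log2 fold change of each gene in mid liver (circles, n = 3) and late liver (squares, n = 2) against the 3 controls, and bars its standard error, with genes grouped by role on the horizontal axis. Mid and late points lie side by side for most genes, with Ccnb2 highest at mid (5.77) and Aurkb highest at late time points (6.14), while Bub3, Kif23 and Racgap1 lie low and Smc4 lies below 0.

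The cyclins with their kinase and its phosphatase had the highest median of the 9 roles at either time. All 5 genes, Ccna2, Ccnb1, Ccnb2, Cdk1 and Cdc25c, were higher at both times, with median log2 fold changes of 5.02 at mid and 5.74 at late time points. Their summed level was 25.3, 12.8 and 6.14 CPM in the controls, 905, 271 and 557 CPM in mid and 1004 and 630.3 CPM in late liver. Ccnb2, which encodes a B-type cyclin, read 6.14, 3.38 and 0.682 CPM in the controls, 232, 94.8 and 196 CPM in mid and 226 and 177 CPM in late liver. The same gene read 1.72 CPM in the undivided library, 6.05 and 1.20 CPM in early spleen, 37.3 CPM in day 14 spleen and 60.9 and 1.47 CPM in early liver. Its lowest mid or late library stood above its highest control by far more than the spread of the controls. Its log2 fold change of 5.77 ± 1.31 (adjusted p = 0.0239) was the highest of the 50 at mid time points in the main fit.

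Ccna2, the cyclin of S and G2 phase, was measured at 6.55, 3.40 and 1.49 CPM in the controls and rose to 211, 82.9 and 183 CPM in mid and 242 and 204 CPM in late liver. Elsewhere Ccna2 was at 3.08 CPM in undivided cells, 6.58 and 1.96 CPM in early spleen, 46.6 CPM in day 14 spleen and 53.2 and 0.846 CPM in early liver. The late change was 57.6-fold (log2 5.85 ± 1.34, adjusted p = 0.0180), with no overlap between the groups. Cdk1, the mitotic kinase itself, went from 4.91, 2.11 and 1.62 CPM in the controls to 203, 36.3 and 72.3 CPM in mid and 265 and 106 CPM in late liver. Its values were 3.28 CPM in undivided cells, 2.69 and 1.42 CPM in early spleen, 17.6 CPM in day 14 spleen and 22.0 and 0.533 CPM in early liver. For Cdk1 the TG libraries were the highest at both mid and late time points, and every mid and late library was above every control.

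Ccnb1, the other B-type cyclin, had 6.71, 2.95 and 1.46 CPM in the controls, 227, 49.5 and 89.3 CPM in mid and 241 and 126 CPM in late liver. It had 2.59 CPM in undivided cells, 3.67 and 2.11 CPM in early spleen, 21.1 CPM in day 14 spleen and 29.0 and 1.25 CPM in early liver. The libraries ranked as for Cdk1, with the TG livers highest and no overlap with the controls. Of the 31-base words in Ccnb1 transcripts, 27.8% are also in transcripts of another gene, 82.4% of them in the copy Ccnb1-ps, so part of its count could belong there. Cdc25c, the phosphatase that activates CDK1, was the lowest of the 5 at 0.974, 0.938 and 0.877 CPM in the controls, 32.8, 7.69 and 15.5 CPM in mid and 28.6 and 17.9 CPM in late liver, a late log2 fold change of 4.43 ± 0.68 (adjusted p = 0.00914). Cdc25c was at 0.531 CPM in undivided cells, 0.728 and 5.02 CPM in early spleen, 4.70 CPM in day 14 spleen and 5.35 and 1.07 CPM in early liver, with early spleen library 2 apart from library 1.

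The transcription factors of the late cell cycle rose as well. Foxm1 read 3.70, 6.16 and 3.99 CPM in the controls, 61.9, 35.3 and 63.9 CPM in mid and 53.7 and 94.6 CPM in late liver. In the remaining groups Foxm1 was at 4.11 CPM (undivided), 6.25 and 4.29 CPM (early spleen), 24.4 CPM (day 14 spleen) and 27.4 and 5.39 CPM (early liver). Its controls were tight and did not overlap the mid or late libraries, with log2 fold changes of 3.55 ± 0.62 (adjusted p = 0.0220) at mid and 4.01 ± 0.66 (adjusted p = 0.0103) at late time points. Mybl2, which acts before Foxm1 in the same program, gave 4.14, 2.78 and 2.05 CPM in the controls, 127, 31.4 and 81.3 CPM in mid and 103 and 72.9 CPM in late liver. Mybl2 was at 2.69 CPM in undivided cells, 4.45 and 4.40 CPM in early spleen, 22.5 CPM in day 14 spleen and 28.5 and 1.82 CPM in early liver. Mid library 2 was the lowest of the 5 mid and late libraries for both factors, and of the words in Mybl2 21.1% are shared, most with Gm3320.

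The 4 kinases grouped here under the spindle, Aurka, Plk1, Nek2 and Melk, were all higher at both times, with median log2 fold changes of 5.0 and 5.42. Melk was placed there for want of a closer role. Plk1 drives centrosome maturation and many later steps of mitosis. It was at 3.84, 2.23 and 1.10 CPM in the controls, 238, 44.6 and 85.8 CPM in mid and 224 and 114 CPM in late liver. Its other values were 1.69 CPM in undivided cells, 3.67 and 1.02 CPM in early spleen, 18.6 CPM in day 14 spleen and 25.3 and 1.16 CPM in early liver. The rise at late time points was 60.9-fold (log2 5.93 ± 1.09, adjusted p = 0.0124), and the lowest mid library was above the highest control by more than the controls differed among themselves. Of its words 18.7% are shared, most with Plk-ps1. Aurka, the Aurora kinase of the spindle poles, started higher, at 8.36, 5.94 and 4.22 CPM, and reached 125, 24.3 and 41.5 CPM in mid and 122 and 49.3 CPM in late liver. Aurka was at 5.44 CPM in undivided cells, 5.60 and 3.46 CPM in early spleen, 14.7 CPM in day 14 spleen and 15.2 and 4.33 CPM in early liver. With a log2 fold change of 3.42 ± 0.54 (adjusted p = 0.00961) at late time points it rose least of the 4, and Nek2 (5.64 ± 1.21), a centrosome kinase, and Melk (5.21 ± 1.31) lay between it and Plk1.

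The checkpoint and anaphase group (Bub1, Bub1b, Bub3, Mad2l1, Ttk, Cdc20 and Ube2c) passed in full at both times, 7 of 7, with medians of 4.45 and 4.92. Bub1b, which encodes the checkpoint protein BUBR1, read 3.25, 2.72 and 0.455 CPM in the controls, 100.3, 59.0 and 124 CPM in mid and 126 and 137 CPM in late liver. Bub1b was at 2.82 CPM in undivided cells, 5.29 and 2.33 CPM in early spleen, 28.6 CPM in day 14 spleen and 38.1 and 1.35 CPM in early liver. Both late libraries were above all 3 mid libraries for this gene, which was so for only 2 others of the 50, Mad2l1 and Tpx2, against 8.03% of all genes. Bub3, whose protein also works outside mitosis, behaved unlike its partners. It was already at 173, 132 and 117 CPM in the controls, and read 437, 177 and 202 CPM in mid and 522 and 232 CPM in late liver. Bub3 was at 138 CPM in undivided cells, 118 and 100 CPM in early spleen, 145 CPM in day 14 spleen and 169 and 121 CPM in early liver. The rise was small, 1.77-fold at mid and 2.19-fold at late time points (log2 1.13 ± 0.25 at late, adjusted p = 0.0140), and mid library 2 at 177 CPM barely cleared control 1 at 173 CPM.

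Cdc20, the activator that the checkpoint holds back, was at 13.6, 10.3 and 6.92 CPM in the controls, 372, 80.4 and 139.5 CPM in mid and 365 and 175 CPM in late liver. The other groups gave 9.22 CPM in undivided cells, 13.1 and 5.46 CPM in early spleen, 34.3 CPM in day 14 spleen and 58.1 and 10.2 CPM in early liver. Ube2c, the ubiquitin-conjugating enzyme of the anaphase-promoting complex, was at 12.4, 5.51 and 1.66 CPM in the controls, 346, 51.6 and 87.6 CPM in mid and 387 and 162 CPM in late liver. For both genes mid library 2 was the lowest of the 5 and still above every control. Ube2c read 3.15 CPM in undivided cells, 4.40 and 2.18 CPM in early spleen, 24.9 CPM in day 14 spleen and 23.3 and 2.10 CPM in early liver. The late log2 fold changes were 4.41 ± 0.70 and 5.22 ± 0.96, and part of the words of either gene is shared, 26.7% for Cdc20 (most with Gm7856) and 25.3% for Ube2c (most with Tnnc2). Ttk, the kinase that starts checkpoint signaling, and Mad2l1, which encodes the inhibitor MAD2, had late changes of 4.92 ± 1.28 and 3.03 ± 0.49.

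The chromosomal passenger complex corrects faulty attachments and then moves to the midzone. All 4 of its genes were higher at both times, with medians of 4.94 and 5.27. Aurkb, its kinase, read 3.73, 1.47 and 0.617 CPM in the controls, 140.3, 39.1 and 87.7 CPM in mid and 168 and 110.0 CPM in late liver. It read 2.55 CPM in undivided cells, 4.12 and 1.06 CPM in early spleen, 23.6 CPM in day 14 spleen and 25.6 and 0.282 CPM in early liver. At 70.6-fold (log2 6.14 ± 1.38, adjusted p = 0.0171) its late rise was the highest of the 50 in the main fit. Its error was larger than its lead over Plk1 (5.93). Birc5, which encodes survivin, was more abundant at 10.9, 4.89 and 2.5 CPM in the controls, 345, 78.3 and 166 CPM in mid and 295 and 179.5 CPM in late liver. Birc5 had 5.21 CPM in undivided cells, 7.82 and 4.66 CPM in early spleen, 47.5 CPM in day 14 spleen and 47.9 and 3.01 CPM in early liver. Neither gene overlapped with the controls in any mid or late library. Cdca8, which encodes borealin, changed by 5.33 ± 0.95 at late time points and Incenp, the scaffold, by only 2.55 ± 0.35 (adjusted p = 0.00809), from 21.2, 29.0 and 30.0 CPM in the controls to 139.7 and 168 CPM in late liver.

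In the centromere and kinetochore group all 7 genes were higher at both times, but less so, with medians of 3.94 and 4.17. Cenpe, the kinetochore motor that carries chromosomes to the metaphase plate, was at 3.78, 2.31 and 2.21 CPM in the controls, 77.7, 40.5 and 42.5 CPM in mid and 40.3 and 59.7 CPM in late liver. Cenpe had 3.12 CPM in undivided cells, 5.43 and 2.29 CPM in early spleen, 20.0 CPM in day 14 spleen and 23.5 and 1.82 CPM in early liver. Mid library 1 was above the other mid and late libraries. Cenpf, a kinetochore protein of G2 and M phase, did the same, with 3.70, 2.19 and 1.33 CPM in the controls, 80.0, 27.5 and 29.6 CPM in mid and 40.0 and 53.8 CPM in late liver. Cenpf was at 1.72 CPM in undivided cells, 2.91 and 4.58 CPM in early spleen, 15.5 CPM in day 14 spleen and 15.3 and 0.941 CPM in early liver. The log2 fold changes of the pair were 4.24 ± 0.85 and 4.16 ± 0.93 at mid and 4.17 ± 0.88 and 4.32 ± 0.98 at late time points, so neither moved between the times by more than its error.

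Ndc80, the microtubule-binding core of the kinetochore, was not silent at rest. It read 14.4, 14.6 and 11 CPM in the controls, 41.2, 25.7 and 42.0 CPM in mid and 37.9 and 56.5 CPM in late liver. Ndc80 was at 11.8 CPM in undivided cells, 11.9 and 11.6 CPM in early spleen, 20.2 CPM in day 14 spleen and 19.5 and 9.81 CPM in early liver. Its late change of 1.80 ± 0.35 (adjusted p = 0.0118) was the lowest of the group, and far under that of Nuf2 (5.04 ± 0.84), its partner in the same complex, which went from 1.39, 1.45 and 1.07 CPM in the controls to 37.9, 18.7 and 45.6 CPM in mid and 42.4 and 46.0 CPM in late liver. Nuf2 had 2.75 CPM in undivided cells, 1.93 and 2.76 CPM in early spleen, 10.7 CPM in day 14 spleen and 10.9 and 1.16 CPM in early liver. The remaining subunits of that complex, Spc24 and Spc25, changed by 4.17 ± 0.70 and 4.41 ± 0.90. In TPM, which divides by transcript length and so allows levels of different genes to be set side by side, Ndc80 and Nuf2 averaged 5.54 ± 0.589 and 0.479 ± 0.119 TPM in the controls (SD, n = 3) and 15.9 ± 9.25 and 15.2 ± 5.77 TPM in late liver (SD, n = 2). Cenpa, the histone variant of centromeres, changed by 2.37 ± 0.41 (adjusted p = 0.0101) at late time points and had the highest late level of all 50 genes in TPM, 265 ± 4.73 (SD, n = 2).

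The kinesin motors rose with medians of 4.27 and 4.70, 7 of 7 at both times. Kif11, which pushes the spindle poles apart, was at 1.77, 1.99 and 0.714 CPM in the controls, 37.2, 35.0 and 59.9 CPM in mid and 33.6 and 72.3 CPM in late liver. Kif11 had 1.89 CPM in undivided cells, 3.25 and 1.71 CPM in early spleen, 19.6 CPM in day 14 spleen and 22.8 and 1.29 CPM in early liver. The XC libraries mid 3 and late 2 were the highest here, unlike for Cdk1 or Plk1, where the TG livers led. Kif20a, a motor of the central spindle, read 3.94, 5.16 and 2.86 CPM in the controls, 70.1, 52.7 and 113 CPM in mid and 92.6 and 116 CPM in late liver. Kif20a was at 2.59 CPM in undivided cells, 7.12 and 2.11 CPM in early spleen, 27.6 CPM in day 14 spleen and 34.2 and 3.39 CPM in early liver. The late change was 4.70 ± 0.86 (adjusted p = 0.0123), with 26.7% of its words shared, most with Cdc23. Kif2c, which depolymerizes microtubule ends, Kif4 and Kif22, which bind chromosomes, and Kif15, a partner of Kif11, changed by 5.24 ± 0.97, 4.91 ± 1.09, 3.72 ± 0.64 and 3.76 ± 0.79 at late time points.

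Kif23, which with Racgap1 forms the centralspindlin complex of the midzone, was the exception among the motors. It read 24.7, 32.8 and 31.2 CPM in the controls, 49.3, 45.2 and 66.0 CPM in mid and 38.1 and 79.1 CPM in late liver, a rise of 1.81-fold and 1.99-fold (log2 0.99 ± 0.24 at late, adjusted p = 0.0180). Kif23 was at 37.4 CPM in undivided cells, 28.0 and 34.2 CPM in early spleen, 37.1 CPM in day 14 spleen and 27.3 and 28.9 CPM in early liver, all near the control level. The rise depended on how transcripts were counted. With counts scaled from TPM the late log2 fold change of Kif23 was 0.06 (edgeR, adjusted p = 0.899), and with protein-coding transcripts alone, an alternative chosen after the data were seen, it was 1.96. The transcripts that code for protein held 28.1% to 40.3% of Kif23 counts in the controls and 57.1% to 76.5% in mid and late liver, so that the resting signal came largely from transcripts that do not code.

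Spindle assembly and cytokinesis genes passed in 6 of 7 cases at mid and in 7 of 7 at late time points, with medians of 3.72 and 4.02. Tpx2, which nucleates spindle microtubules and activates Aurora A, was at 4.03, 3.32 and 1.75 CPM in the controls, 120.2, 57.8 and 119 CPM in mid and 121 and 129 CPM in late liver. Tpx2 had 3.62 CPM in undivided cells, 4.26 and 2.40 CPM in early spleen, 27.6 CPM in day 14 spleen and 30.0 and 1.16 CPM in early liver. Both late libraries were above all mid libraries, late library 1 only just above mid library 1. Anln, the scaffold of the cytokinetic ring, was low everywhere, with 4.55, 1.86 and 2.37 CPM in the controls, 18.4, 10.3 and 22.2 CPM in mid and 15.3 and 27.0 CPM in late liver. Anln was at 2.72 CPM in undivided cells, 3.03 and 3.67 CPM in early spleen, 8.23 CPM in day 14 spleen and 7.27 and 2.04 CPM in early liver. Its late change was 2.87 ± 0.62 (adjusted p = 0.0147), beside 3.37 ± 0.64 for Ect2, which activates the ring, 4.12 ± 0.87 for Prc1, which bundles the midzone, 5.23 ± 1.15 for Nusap1 and 4.02 ± 0.60 for Hmmr, both spindle microtubule proteins.

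Racgap1, the partner of Kif23, read 102, 140.3 and 95.3 CPM in the controls, 171, 136 and 219 CPM in mid and 169.7 and 255 CPM in late liver. Control 2 lay above mid library 2, so the groups overlapped, and the mid change of 0.63 ± 0.24 (adjusted p = 0.0721) missed the threshold. The late change of 0.92 ± 0.26 (adjusted p = 0.0272) passed it, but did not with counts scaled from TPM (0.76, adjusted p = 0.0681), without the series term (adjusted p = 0.0686) or with day 0 controls only (adjusted p = 0.0719). Racgap1 was at 79.7 CPM in undivided cells, 91.2 and 66.4 CPM in early spleen, 136 CPM in day 14 spleen and 108 and 92.6 CPM in early liver.

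Of the 7 chromosome structure genes 6 were higher at both times, with medians of 4.61 and 4.87. Mki67, which encodes the proliferation marker Ki-67, was at 13.2, 3.93 and 1.04 CPM in the controls, 269, 136 and 174 CPM in mid and 161 and 223 CPM in late liver. Mki67 had 3.42 CPM in undivided cells, 9.44 and 3.20 CPM in early spleen, 68.9 CPM in day 14 spleen and 82.4 and 1.29 CPM in early liver. Control 3 was far below control 1, and the log2 fold changes carry a large error, 5.24 ± 1.41 at mid and 5.27 ± 1.46 at late time points. Top2a, the topoisomerase that untangles sister chromatids, read 13.7, 10.0 and 4.58 CPM in the controls, 289.6, 142 and 265 CPM in mid and 257 and 299.7 CPM in late liver. Top2a was at 10.3 CPM in undivided cells, 14.6 and 5.35 CPM in early spleen, 84.6 CPM in day 14 spleen and 90.8 and 3.95 CPM in early liver. No mid or late library overlapped with a control for either gene. The condensin subunits Ncapg (4.94 ± 1.08), Ncaph (4.98 ± 1.09) and Ncapd2 (2.98 ± 0.44) rose at late time points, and Smc2, an ATPase of the complex, rose least at 2.12 ± 0.35 (adjusted p = 0.00961).

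Smc4, the partner ATPase of Smc2, was the only gene of the 50 that was not higher at either time. It was at 314, 300.3 and 272 CPM in the controls, 298, 282 and 174 CPM in mid and 209 and 245 CPM in late liver. Smc4 had 337 CPM in undivided cells, 302 and 236 CPM in early spleen, 429 CPM in day 14 spleen and 249 and 271 CPM in early liver. The log2 fold changes were -0.26 ± 0.22 (adjusted p = 0.380) at mid and -0.42 ± 0.25 (adjusted p = 0.204) at late time points, so that a change was not detectable with these libraries. A transcript annotated as subject to nonsense-mediated decay, Smc4-207, held 38.1% to 60.1% of the Smc4 counts in the controls and 37.3% to 52.6% in mid and late liver.

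A few genes of the list were thus well expressed in the controls. In TPM the highest control means were 149 ± 15 for Smc4, 80.7 ± 8.71 for Bub3, 47.6 ± 17.3 for Racgap1, 37.2 ± 14.0 for Kif23 and 34.0 ± 8.86 for Cenpa (SD, n = 3). These 5 are also among the genes with the smallest change, a description only, since the controls enter both values. In late liver the highest TPM means after Cenpa were 193 ± 46.6 for Ube2c, 179 ± 2.73 for Birc5, 149 ± 25.7 for Bub3 and 132 ± 34.7 for Cdk1, and the lowest were 3.89 ± 2.86 for Anln, 4.86 ± 2.76 for Cenpe and 5.19 ± 3.43 for Ttk (SD, n = 2). Racgap1, Kif23 and Cenpa in the controls, Ube2c and Birc5, Bub3 and Cdk1, and the lowest genes of late liver did not differ from their neighbours beyond these SDs.

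The Cenpa reads also changed in kind. The retained-intron transcript Cenpa-208 held 46.4% to 64.2% of the Cenpa counts in the controls and 7.2% to 13.0% in mid and late liver. Transcripts annotated as subject to nonsense-mediated decay took up much of that share, Cenpa-202 with 18.0% to 32.8% in the controls and 47.9% to 52.8% in mid and late liver and Cenpa-210 with 0.0% to 3.4% and 7.0% to 21.3%, and the protein-coding share was low in both, at 7.2% to 13.8% and 12.4% to 19.7%. With counts scaled from TPM the late log2 fold change of Cenpa was 3.14 in place of 2.37, and it was 3.14 with protein-coding transcripts alone. Across the 50 genes the median share of counts on protein-coding transcripts was 84.1% over the controls and 94.5% over mid and late liver. For 15 genes (Ccnb1, Cdc25c, Bub1, Incenp, Ndc80, Nuf2, Spc25, Kif11, Kif15, Kif22, Kif23, Kif2c, Kif4, Anln and Ncapg) the share in every control was below that in every mid and late library, a pattern held by 13.1% of the 14714 genes for which a share could be computed. Some control shares of the 15 rest on few counts, such as 3 for Bub1, 22 for Kif11 and 25 for Spc25 in control 3. None of the 50 showed the reverse pattern, held by 1.12% of genes.

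**Figure D3:**
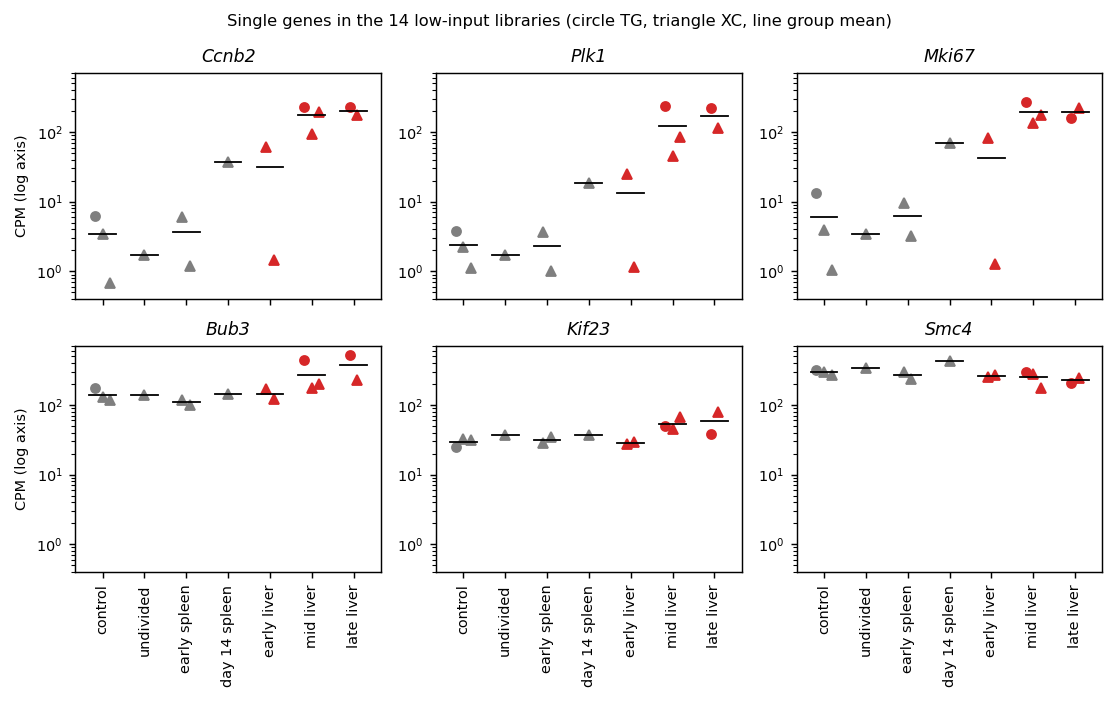
Each point is the CPM (log axis) of 1 library for Ccnb2, Plk1, Mki67, Bub3, Kif23 and Smc4, with circles for TG and triangles for XC libraries, red for liver and grey for spleen, and lines at the group means. The upper genes have all mid and late libraries above all controls (for Mki67 136 CPM at the lowest against 13.2 CPM) and split the early liver libraries, while Bub3, Kif23 and Smc4 lie within narrower ranges.

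No gene of the 50 was called different between late and mid liver, the comparison that asks whether the mitotic program changes as the leukemia advances. edgeR called 0 of the 50, with 0 at an unadjusted p under 0.05, and DESeq2 called 0. Over all 14600 genes edgeR called 0.0%, 5.34% were at an unadjusted p under 0.05, and DESeq2 called 0.233%. The log2 fold changes ran from -0.16 ± 0.25 for Smc4 to 0.78 ± 0.85 for Ube2c, 47 of the 50 were positive, and the median was 0.33. For single genes the error was of the same size as the change or larger. Cdk1, for instance, had a log2 fold change of 0.72 ± 1.01 (adjusted p = 0.965), and Mki67 one of 0.03 ± 1.29 (adjusted p = 0.998).

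The series disagreed on the direction. The late library was from day 18 in TG and from day 16 in XC, so series and late day cannot be told apart here. Between the TG libraries, late 1 was above mid 1 for 22 genes and below it for 28, with a median difference of -0.04 on the log2(CPM + 0.1) scale. The lowest TG differences were -1.0 for Cenpf, -0.95 for Cenpe and -0.74 for Mki67, and the highest was 0.60 for Kif2c. Between the XC libraries, late 2 was above the mean of mid 2 and mid 3 for all 50 genes, from 0.14 for Smc4 to 1.27 for Ube2c, with a median of 0.66. That difference came mainly from mid library 2, the lowest of the mid libraries for most genes, since late 2 exceeded it by a median of 1.14 and mid 3 by 0.22. Leaving out late library 2 turned the median late against mid fold change to -0.02. With 1 or 2 libraries of each time in a series these differences were not tested.

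**Figure D4:**
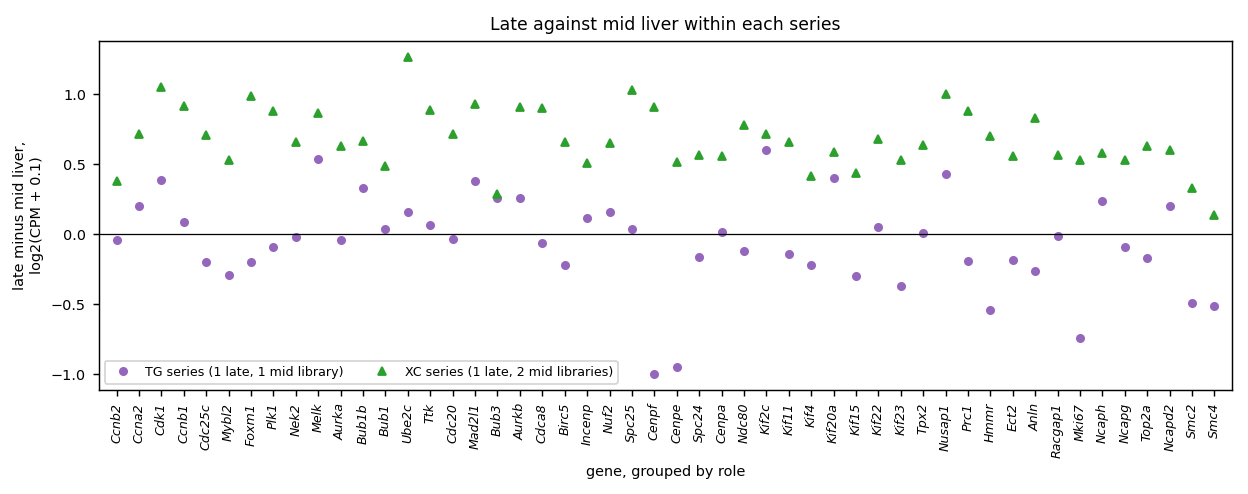
Points give the late minus mid liver difference on the log2(CPM + 0.1) scale for each gene, purple circles for the TG series (1 late, 1 mid library) and green triangles for the XC series (1 late, 2 mid libraries). All XC points lie above 0, while TG points lie on both sides, 22 above and 28 below.

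Against the controls the series gave like medians at mid time points and less so at late time points. The mid minus control difference had a median of 4.25 in TG and 4.32 in XC, and the late minus control difference 4.13 and 4.89. These are on the same log2(CPM + 0.1) scale, with 49 of 50 genes positive each time and Smc4 negative. Single genes differed in both directions. The late difference of Mki67 was 3.6 in TG and 6.7 in XC, and that of Cdc25c 4.74 and 4.16. TG differences used control 1, from day 0, and XC differences the mean of control 2, from day 0, and control 3, from day 18.

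At day 7 the liver libraries stood apart from each other. Early library 1 was above all 3 controls for 46 of the 50 genes (30.8% of all genes were), the exceptions being Bub3, Kif23, Racgap1 and Smc4. Early library 2 was below all 3 controls for 22 (26.2% of all genes were). Ccnb2 showed the widest mean change and read 60.9 and 1.47 CPM in them, Top2a 90.8 and 3.95 CPM, Mki67 82.4 and 1.29 CPM and Cdc20 58.1 and 10.2 CPM. The first library was thus at a level between the controls and mid liver and the second at that of resting cells. On the log2(CPM + 0.1) scale library 1 exceeded library 2 for 48 genes, by a median of 3.48, from -0.12 for Smc4 to 6.07 for Aurkb.

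With both libraries, early liver against control gave 0 of 50 genes called by edgeR (0.0% of all genes) and 31 at an unadjusted p under 0.05 (10.2% of all genes). DESeq2 called 4 (2.4% of all genes), namely Cdc20, Mybl2, Cdca8 and Spc24. Their edgeR log2 fold changes were 2.14 ± 0.67, 2.67 ± 0.95, 2.54 ± 0.89 and 2.39 ± 0.69. The median of the 50 was 2.24, from -0.26 ± 0.28 for Racgap1 to 3.63 ± 1.31 for Ccnb2. Without early library 2, 42 genes were higher (9.64% of all genes then tested), and without early library 1 the median was -0.42. Each of these fits holds 1 early liver library, taken to vary like the other groups. In the fit without early library 2 the genes not called were Racgap1, Ndc80, Cenpa, Mad2l1, Kif23, Smc4, Anln and Bub3.

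Undivided cells, taken from leukemia-bearing mice but with their dye kept, resembled the controls in level. For 41 of the 50 genes the undivided library lay within the range of the 3 controls (59.9% of all genes did), the exceptions being Cdc25c, Ect2, Kif20a, Kif23, Mad2l1, Nuf2, Racgap1, Smc2 and Smc4. For 49 it lay below both late livers (39.1% of all genes did), Smc4 being the exception. Nuf2 read 2.75 CPM against 1.39, 1.45 and 1.07 CPM in the controls, the highest change at 1.10 ± 1.0, and Kif20a read 2.59 CPM against 3.94, 5.16 and 2.86 CPM, the lowest at -0.70 ± 1.13. Between them the median was 0.17, with 35 genes positive, and it was -0.06 without control 3 or without the series term. edgeR called 0 of the 50 (0.0% of all genes), 0 were at an unadjusted p under 0.05 (1.25% of all genes) and DESeq2 called 0 (0.0% of all genes). A single undivided library carries no spread of its own and was taken to vary like the other groups.

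Late liver against the undivided library gave a median log2 fold change of 4.57, from -0.64 ± 0.34 for Smc4 to 6.42 ± 2.31 for Ccnb2. edgeR called 0 of the 50 (0.0% of all genes), the lowest adjusted p being 0.102, while 47 were at an unadjusted p under 0.05 (25.9% of all genes). DESeq2 called 44 (12.9% of all genes). Here the size of the change was close to that against the controls, and the call depended on the tool. The undivided library was from spleen and the late libraries were from liver, so division and tissue cannot be told apart in this comparison.

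The controls themselves were not at one level. Control 3, the transferred cells at day 18, was the lowest of the 3 for 38 of the 50 genes (31.7% of all genes). Mki67 read 13.2 CPM in control 1 and 1.04 CPM in control 3, and Bub1b 3.25 and 0.455 CPM. Control 1 also was the highest of the controls for the cyclins and for Plk1, Birc5 and Ube2c, while Kif23 was lowest there.

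In the spleen of leukemia-bearing mice the genes were near the control level at day 7 and above it at day 14. At day 7 edgeR called 0 of the 50 against the controls (0.0% of all 15449 genes tested), 0 were at an unadjusted p under 0.05 (6.27% of all genes), and DESeq2 called 0 (0.0712% of all genes). The median was 0.33, from -0.60 ± 0.28 for Racgap1 to 1.87 ± 0.85 for Cdc25c, whose value came from early spleen library 2 alone, at 0.728 and 5.02 CPM in libraries 1 and 2. Without that library the Cdc25c change was -0.10. Without early spleen library 1 the median of the 50 was -0.17.

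The day 14 spleen library was above all 3 controls for 47 of the 50 genes (28.7% of all genes were), the exceptions being Bub3, Cenpa and Racgap1. Every fold change was positive, with a median of 3.04, from 0.18 ± 0.31 for Kif23 to 4.30 ± 1.52 for Bub1, the checkpoint kinase. Bub1 read 12.7 CPM there against 0.974, 0.782 and 0.0974 CPM in the controls, 0.929 CPM in undivided cells, 1.71 and 0.691 CPM in early spleen, 13.8 and 0.282 CPM in early liver, 26.2, 22.5 and 44.5 CPM in mid and 27.0 and 44.5 CPM in late liver. edgeR called 0 of the 50 (0.00647% of all genes), although 43 were at an unadjusted p under 0.05 (5.15% of all genes), and DESeq2 called 0 (0.0712% of all genes). There was 1 such library, so its spread was taken from the other groups. With counts scaled from TPM the Kif23 change was -0.25.

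Liver and spleen could be compared at matched stages. At day 7 the liver was above the spleen by a median of 1.78, from -0.15 ± 0.26 for Kif23 to 3.09 ± 1.49 for Ccnb2. edgeR called 0 of the 50 (0.0% of all genes), 5 were at an unadjusted p under 0.05 (9.0% of all genes), namely Foxm1, Cdc20, Cenpa, Ncapd2 and Spc24, and DESeq2 called 0 (0.362% of all genes). Without early liver library 1 the median was -0.99, and without early liver library 2, with 1 early liver library left, edgeR called 28 (4.98% of all genes were higher).

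The day 14 spleen library was below all 3 mid liver libraries for 48 of the 50 genes (28.8% of all genes), Ect2 and Smc4 being the exceptions. The median of mid liver against day 14 spleen was 1.36, from -0.82 ± 0.31 for Smc4 to 1.99 ± 1.45 for Plk1. edgeR called 0 of the 50 (0.00647% of all genes), 3 were at an unadjusted p under 0.05 (5.81% of all genes), namely Incenp, Cenpa and Smc4, and DESeq2 called 0 (0.11% of all genes). Taking only day 14 and XC, liver library 3 was above the spleen library for 49 genes, by a median of 1.69 on the log2(CPM + 0.1) scale, with Smc4 the exception at -1.30. No difference between liver and spleen in the change from early to mid time points was detected for any of the 50 (edgeR interaction term, 0 called and 0 at an unadjusted p under 0.05, with 1 gene called of 15449).

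The promoters of many of these genes share 2 short elements. The CHR (cell cycle genes homology region, TTTGAA or TTCGAA on either strand) and the CCAAT box (CCAAT on either strand) are known to bind the MuvB and NF-Y complexes that act on G2/M genes. RefSeq promoters (GRCm38.p6, 250 bases before to 50 after the start) were found for 41 of the 50 genes. No entry was found for Aurkb, Ccna2, Cdc25c, Foxm1, Incenp, Kif20a, Smc4, Spc24 and Tpx2. Of the 41, 31 (75.6%) held a CHR, against 19.2% of all 32851 promoters, and 28 (68.3%) held one within 50 bases of the start, against 5.3%. CCAAT was in 30 (73.2%, against 37.4%) and both were in 27 (65.9%, against 7.5%). A listed gene was counted where any of its promoters held the element, while the share of all promoters counts each entry, so the units differ. Such matches are counts of letters and not proven sites.

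The last 100 bases before the start of 4 of the genes, chosen because both elements occur in them, read as follows 5′ to 3′ on the gene's strand, with the letters of either element in capitals.
Cdc20: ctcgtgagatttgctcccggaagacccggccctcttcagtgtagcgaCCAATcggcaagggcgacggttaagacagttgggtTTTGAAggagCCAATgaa
Cdk1: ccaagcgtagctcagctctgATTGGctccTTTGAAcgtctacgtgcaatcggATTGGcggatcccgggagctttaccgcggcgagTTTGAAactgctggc
Kif11: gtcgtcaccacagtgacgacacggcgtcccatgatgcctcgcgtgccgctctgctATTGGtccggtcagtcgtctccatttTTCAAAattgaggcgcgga
Top2a: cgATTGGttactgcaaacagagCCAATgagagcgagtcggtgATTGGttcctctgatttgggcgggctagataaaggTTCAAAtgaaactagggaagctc

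The Cdc20 window lies at chr4:118437344-118437443 on the minus strand and has its CHR 18 bases before the start and a CCAAT on each side of it, at 53 and 8 bases. Cdk1, at chr10:69352913-69353012 on the minus strand, has a CHR at 71 and another at 15 bases before the start, with reversed CCAAT boxes at 80 and 48. Kif11, at chr19:37376282-37376381 on the plus strand, has 1 of each, a reversed CHR at 19 and a reversed CCAAT at 45 bases. Top2a, at chr11:99024190-99024289 on the minus strand, has a reversed CHR at 23 and 3 CCAAT boxes, at 98, 78 and 58 bases. Those at 98 and 58 are reversed. In the Cdc20 and Cdk1 windows the last 9 and 26 bases overlap an annotated exon. All 4 genes rose at late time points, with log2 fold changes of 4.41 for Cdc20, 5.74 for Cdk1, 5.08 for Kif11 and 4.87 for Top2a. Whether the elements go with the size of the change was not tested. The 27 genes with both had a median late log2 fold change of 4.41 (0.92 to 5.93) and the 7 with neither (Birc5, Mad2l1, Melk, Mybl2, Ncaph, Nuf2 and Nusap1) one of 5.04 (3.03 to 5.23).

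Other genes of the cell cycle were counted in the same fits. Of 50 further mitotic genes, 46 were higher than the controls at mid and 47 at late time points, with medians of 3.64 and 3.95. The highest at late time points was Ska1 (6.64 ± 1.24), a kinetochore protein, and the lowest Pttg1 (-0.08 ± 0.17, adjusted p = 0.736), which encodes securin. Of 36 DNA replication genes, 35 were higher at each time, with medians of 2.44 and 2.63, from Cdt1 (0.65 ± 0.24, adjusted p = 0.0594) to Cdc6 (5.65 ± 1.29), both of which load the replicative helicase. The anaphase-promoting complex with its regulators moved less, with 5 of 17 genes higher at mid and 7 at late time points and medians of 0.41 and 0.60. Of its 14 subunits, 2 were higher at mid (Anapc15 and Cdc16) and 4 at late time points (Anapc11 and Anapc13 as well). The other calls were its activator Fzr1, its enzyme Ube2s and its inhibitor Fbxo5, each higher at both times. The extremes of the list at late time points were Anapc16 (0.05 ± 0.17, adjusted p = 0.845) and Fbxo5 (2.58 ± 0.40). Cdc20 and Ube2c, at 4.41 and 5.22, lay above every gene of that list.

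Cohesin and condensin II genes did not move as a group. Of 13, 4 were higher and 1 lower at each time, with medians of 0.00 and -0.14. The highest was Ncapg2 (3.30 ± 0.91), a condensin II subunit, and the lowest the cohesin loader Nipbl (-1.21 ± 0.30, adjusted p = 0.0185). Regulators of G1 and of the G1/S transition split, with 13 of 26 higher and 1 lower at mid and 15 higher and 1 lower at late time points. E2f8, a repressor of the E2F family, was the highest (5.44 ± 1.16) and Ccnd1, which encodes cyclin D1, the lowest (-2.56 ± 0.78, adjusted p = 0.0328). The medians of that list were 1.09 and 1.18.

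Of the CDK inhibitors and quiescence factors, 11 of 12 could be tested. At mid time points 2 were higher and 7 lower, and at late time points 1 was higher and 5 lower, with medians of -1.32 and -1.13. The gene that was higher at late time points was Cdkn2c (3.01 ± 0.53, adjusted p = 0.0103), which encodes the CDK4 and CDK6 inhibitor p18, and at mid time points Cdkn1a (2.33 ± 0.65, adjusted p = 0.0334), which encodes p21, passed too. Tob1 (-2.07 ± 0.57, adjusted p = 0.0275), an antiproliferative factor, was the lowest, followed by Klf2 (-2.03 ± 0.58) and Foxo1 (-1.71 ± 0.39), transcription factors of resting T cells, by Btg2 (-1.45 ± 0.31) and by Cdkn1b (-1.28 ± 0.40), which encodes p27. In none of these lists was a gene called between late and mid liver by edgeR, and 0 of their genes were at an unadjusted p under 0.05.

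**Figure D5:**
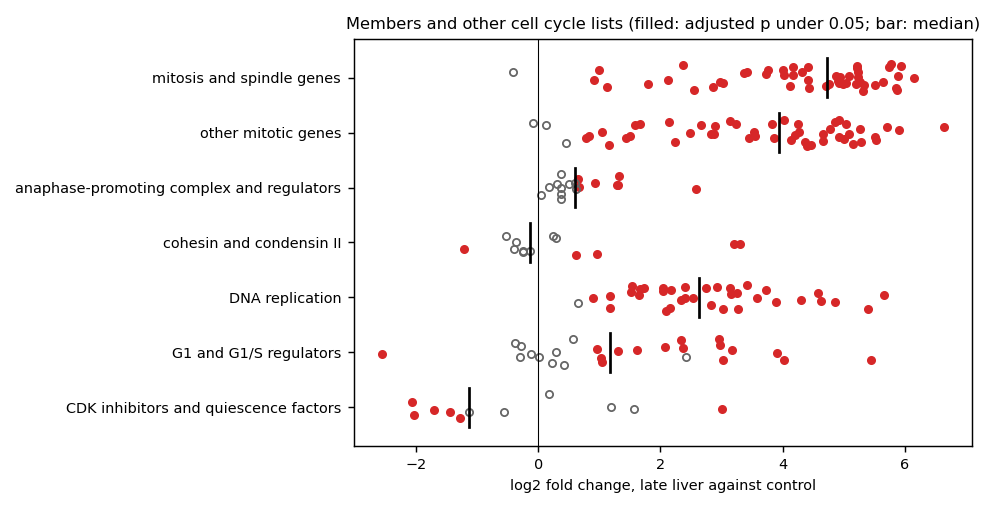
Each point is the edgeR log2 fold change of 1 gene in late liver (n = 2) against control (n = 3), filled red where the adjusted p was under 0.05, for the 50 mitosis and spindle genes and 6 other cell cycle lists on the vertical axis, with a black bar at each median. The highest median was 4.73, in the mitosis and spindle genes, and the lowest was -1.13, in the CDK inhibitors and quiescence factors.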

How the data were processed

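The authors sequenced sorted TCRTg101 cells from 26 runs of 15 libraries in 2 batches, and 14 of the libraries were made by a low-input method and 1 with oligo-dT. Per the file headers, each deposited table lists kallisto output for every transcript, as estimated counts and TPM. The submitters' processing notes also name bcl2fastq, GRCm38 and mm10, and the kallisto version is not given in the sources used here. Transcripts were assigned to genes with GENCODE vM21, which matched 116622 of 118783 transcripts (98.18%) and 98.95% to 99.25% of the counts. Estimated counts were summed over runs and over the transcripts of each gene and rounded.

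A gene was tested where 6 or more libraries held 10 or more counts of it. Tests used edgeR 4.0.16 in R 4.3.3 (robust quasi-likelihood, two-sided, TMM scaling, factors 0.754 to 1.12) with group and series (TG or XC) as terms and Benjamini-Hochberg adjustment over all genes tested, at a threshold of 0.05. A fit of 11 libraries (14600 genes) served controls, undivided cells and liver, and a fit of all 14 low-input libraries (15449 genes) served spleen. The oligo-dT library entered no test. Besides 1 alternative, TPM was used only to compare levels between genes. Alternatives were DESeq2 1.42.0, its size factors in edgeR, no series term, other filters, first runs only, counts scaled from TPM, all 14 libraries, the 2 groups alone, day 0 controls only and leaving out each library, and, chosen after the data were seen, protein-coding transcripts only. The code was tested on simulated data.

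The 50 genes and the other lists were chosen with earlier results of these data known. Values in every library are given for 24 genes fixed by name and for the highest and lowest log2 fold change of each comparison, the genes on the minority side of a call are named where there are 10 or fewer, and of each other list the highest and lowest late changes are named and any that passed where few did. Shared words are 31-base stretches of a gene's transcripts that also occur in transcripts of another gene. They made up at least 10% of the words in 12 of the 50 genes, Ccnb1 (27.8%) being the highest.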

Additional observations from a re-analysis of the deposited data

How the results depend on the processing

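The median of the 50 genes stayed positive for mid and late liver against control under every alternative run, between 4.16 and 4.98 on leaving out 1 library, while the number of calls did not hold. For mid liver against control leaving out 1 library gave 0 to 46 calls, with 24 for day 0 controls alone, which is the fit without control 3. For late liver against control leaving out 1 library gave 0 to 45. Without the filter on low counts the calls were 42 for early liver against control, 47 for late liver against undivided cells, 3 for early spleen and 43 for day 14 spleen against control, 38 for early liver against early spleen and 27 for mid liver against day 14 spleen, where the filtered table gave 0 each time. Over all genes 3.23%, 5.4%, 1.46%, 1.5%, 1.57% and 1.2% were then higher, in the same order. The cause was not tested. DESeq2 gave 4 calls for early liver against control and 44 for late liver against undivided cells. Leaving out 1 library gave 0 to 42 calls for early liver against control and 0 to 28 for early liver against early spleen.

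Values that changed sign lay mostly near 0 or rested on 1 library of day 7. On leaving out 1 library the median of the 50 ran from -0.02 (without late library 2) to 0.60 for late against mid liver. The range was -0.42 to 3.12 for early liver against control and -0.99 to 2.68 for early liver against early spleen. Both were lowest without early liver library 1. For early spleen against control the median ran from -0.17 (without early spleen library 1) to 0.62. For undivided cells against control it ran from -0.06 (without control 3, which leaves the day 0 controls only) to 0.31. With no series term it was also -0.06 there. Smc4 in late against mid liver ran from -0.43 to 0.06, at 0.00 without mid library 1. Ccnb2 ran from -0.80 to 4.56 in early liver against control and from -1.32 to 4.69 against early spleen, Cdc25c from -0.10 to 2.69 in early spleen against control, and Kif23 from -0.29 to 0.00 in early liver against early spleen, where it was 0.38 with protein-coding transcripts only, chosen after the data were seen. Kif23 was -0.25 in day 14 spleen with counts scaled from TPM. The gene with the highest change against control also depended on the counting. With counts scaled from TPM it was Ccnb2 at late time points (5.79). With protein-coding transcripts only it was Cdc25c, at 6.37 at mid and 6.69 at late time points. No paired analysis was possible because the labels give no replicate numbers that groups share.

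Groups held 1 to 3 libraries, and depth was not varied. The lowest counts were those of Bub1, at 3 in control 3, and Ttk, at 2 in early liver library 2.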

Other observations

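A further library of naive Tg101 cells at day 0, made with oligo-dT and belonging to the TG series, entered no comparison. Its summed level of the 50 genes was 1106 CPM, beside 997, 940 and 741 CPM in the low-input controls. Mki67 read 18.9 CPM and Top2a 18.7 CPM in it, and Smc4 517 CPM. The retained-intron transcript Cenpa-208 held 26.0% of the Cenpa counts in this library, against 46.4% to 64.2% in the low-input controls. Smc4 counts lay mostly on the transcript Smc4-202 (69.5%), which held 0.0% to 0.6% in the low-input controls.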
